A study of Mus musculus with 18 samples.

Results

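Here 9 genes of the neuronal programme were followed through the differentiation of mouse neurospheres (NSPs) into astrocytes, with and without tumor necrosis factor (TNF), out of 54838 genes in the count table. They were taken by name: the proneural factors Neurog2 and Neurod1, the homeodomain factors Dlx1, Dlx2, Dlx5 and Dlx6, and the young neuron genes Dcx, Tubb3 and Stmn2. NSPs were grown from the ventricular zone of wild type C57BL/6J embryos at embryonic day 14 and kept proliferating with 20 ng/ml EGF. They were then plated in 10% fetal bovine serum and sequenced, as bulk total RNA, after 24 or 72 h with or without 50 ng/ml TNF and after 1 week without it. This gave 6 conditions (NSP, 24 h, 24 h TNF, 72 h, 72 h TNF and 1 week) with 3 libraries each, and no cell carried a transgene or a deletion. The labels do not say which libraries share a brain, so p-values measure the spread between these libraries, which may be in part technical.

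Proneural factors are basic helix-loop-helix proteins that pair with E proteins, bind E-boxes and start neurogenesis in dividing precursors. Neurog2 marks the dorsal, glutamatergic line of the forebrain and drives Neurod1, while the Dlx factors act in the ventral, GABAergic line. Hes proteins, downstream of Notch, repress proneural genes, and Id proteins take up their E protein partners. Dcx binds microtubules in migrating young neurons, Tubb3 is the neuronal beta-tubulin, and Stmn2 is a tubulin-binding protein of growing axons.

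Total counts ran from 12509693 to 22549627 per library, so that 1 count was worth 0.0442 to 0.0815 CPM (counts scaled to the library's total). Levels are given in CPM after TMM scaling (trimmed mean of M-values). Replicates were compared by a chi-square statistic per degree of freedom over genes, which is near 1 for sampling noise alone. It was 40.5 to 55.4 for pairs holding NSP replicate 1, 24 h TNF replicate 1 or 72 h TNF replicate 1, and 3.71 to 28.6 for all other pairs. These 3 libraries stood apart, and results of tested members and related lists that rest on them are given with and without them. The marker sums, the marker calls and the Stmn2 ratios are given with them only. Summed CPM of 8 astrocyte markers lay at 5128 to 5364 in NSPs, 5696 to 8145 at 72 h and 2683 to 3247 at 1 week. Against NSPs, 2 of the 8 were higher and 3 lower at 72 h, where 28.1% and 27.2% of all tested genes were. At 1 week 0 were higher and 5 lower, against 29.6% and 29.1%. Gfap went from 27.1 CPM on average in NSPs to 2432 at 72 h, whereas Slc1a3 went from 3050 to 2203 and Aldoc from 1181 to 581. The 6 neuron markers, 5 of them tested, summed to 1416 to 2082 CPM per library in all conditions, most of it Map2 at 1531 to 1870 CPM on average, while Nefl had at most 2 counts in any condition. The 8 oligodendrocyte lineage markers, 7 of them tested, summed to 1061 to 1367 CPM in NSPs, 82.4 to 91.7 at 72 h and 111 to 129 at 1 week, and 5, 6 and 7 of the 7 were lower than in NSPs at 24 h, 72 h and 1 week, where 25.5%, 27.2% and 29.1% of all tested genes were lower. The 7 fibroblast and mural markers, 2 of them tested and both higher than in NSPs at each of these times (27.2%, 28.1% and 29.6% of all tested genes were higher), summed to 4.10 to 10.6 CPM in NSPs, 403 to 496 at 24 h and 197 to 294 at 72 h. The other fibroblast and mural markers had too few counts to pass the filter, so these sums rest mainly on the 2 tested ones. The part of these cell types in the results was not tested. The 6 microglial markers summed to at most 3.88 CPM.

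In the table, 6 of the 9 genes passed the filter on low counts: Neurog2, Neurod1, Dlx1, Dlx6, Dcx and Tubb3. Dlx2, Dlx5 and Stmn2 did not pass, and are described by their counts. Per kilobase of exon the order in NSPs was Tubb3 at 10.6 ± 3.55 CPM/kb, Neurod1 at 3.87 ± 0.619, Neurog2 at 2.20 ± 1.42, Dcx at 0.413 ± 0.257, Dlx6 at 0.335 ± 0.221 and Dlx1 at 0.279 ± 0.0341 (SD, n = 3). The spreads of Neurog2 and Neurod1 overlapped, as did those of Dcx, Dlx6 and Dlx1. The 3 genes below the filter were each at most 0.112 CPM/kb on average in every condition.

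Promoter windows of 4 genes are shown because these genes fell together between 24 and 72 h, to show which motifs their start regions hold. The set of RefSeq windows used here (GRCm38.p6), 250 bases before to 50 bases after the annotated start, covered 6 of the 9 genes. Dlx5, Dlx6 and Stmn2 had no window in it, and Dlx6 also fell in that step. Capitals mark the E-box CANNTG, the Hes-type N-box CACNAG and the homeodomain core TAATTA, searched on both strands, and no 2 of these matches overlap:
Neurog2, chr3:127632886-127633185, forward strand: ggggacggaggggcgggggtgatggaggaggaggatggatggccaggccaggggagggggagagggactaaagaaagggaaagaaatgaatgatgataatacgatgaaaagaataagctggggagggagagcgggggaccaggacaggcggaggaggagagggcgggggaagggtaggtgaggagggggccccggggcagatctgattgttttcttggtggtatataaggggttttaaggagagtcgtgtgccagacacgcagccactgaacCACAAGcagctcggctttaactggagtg
Neurod1, chr2:79456587-79456886, reverse strand: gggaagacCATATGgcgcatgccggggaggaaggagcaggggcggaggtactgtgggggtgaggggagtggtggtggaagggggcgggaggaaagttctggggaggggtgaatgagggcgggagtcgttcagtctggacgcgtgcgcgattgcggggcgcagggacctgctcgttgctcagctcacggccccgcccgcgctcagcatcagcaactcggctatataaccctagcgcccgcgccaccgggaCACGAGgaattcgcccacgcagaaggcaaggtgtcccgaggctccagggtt
Dcx, chrX:143933170-143933469, reverse strand: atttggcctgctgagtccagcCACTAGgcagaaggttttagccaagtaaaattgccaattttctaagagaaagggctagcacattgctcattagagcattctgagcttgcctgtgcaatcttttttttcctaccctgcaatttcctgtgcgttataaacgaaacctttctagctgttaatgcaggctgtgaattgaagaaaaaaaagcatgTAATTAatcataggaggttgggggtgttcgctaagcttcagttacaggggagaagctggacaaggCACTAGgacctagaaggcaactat
Tubb3, chr8:123411303-123411602, forward strand: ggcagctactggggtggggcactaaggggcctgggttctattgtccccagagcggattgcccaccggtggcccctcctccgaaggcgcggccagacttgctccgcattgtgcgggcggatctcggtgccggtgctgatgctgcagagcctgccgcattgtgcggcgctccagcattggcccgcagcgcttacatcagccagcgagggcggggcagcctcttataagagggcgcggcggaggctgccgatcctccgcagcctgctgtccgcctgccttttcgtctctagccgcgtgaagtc
The only E-box in these windows was the CATATG of Neurod1, which began 242 bases before the start. CANNTG occurred in 72.3% of the 32851 mouse promoter windows of this length and CATATG in 3.91%. N-boxes lay 23 bases after the start of Neurog2, across the start of Neurod1, and in Dcx 229 bases before and 27 bases after it. CACNAG was found in 42.5% of all windows. Of the 4 windows shown the Dcx window alone held TAATTA, 39 bases before its start, a motif in 5.29% of windows, and the Tubb3 window held none of the 3 motifs. RefSeq held another window for Dcx, with a start 95 bases downstream, that shares 205 bases with the one shown and held the same TAATTA, 1 of the N-boxes and no E-box. The RefSeq starts of Neurod1, Dcx and Tubb3 lay 115, 92 and 129 bases from the outermost GENCODE starts.

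The first question was how the neuronal genes moved when NSPs left the proliferation medium. At 24 h against NSPs, 3 of the 6 tested genes fell (Neurog2, Neurod1 and Dlx1) and none rose, where 25.5% of the 20067 tested genes fell. At 72 h all 6 lay below NSPs, against 27.2% of all genes, and at 1 week again all 6, against 29.1%. From 24 to 72 h 5 of 6 fell, with Dlx1 the exception, where 12.6% of all genes fell. From 72 h to 1 week none of the 6 changed, against 6.63% of all genes in either direction. In that last step edgeR gave 2 members an unadjusted p under 0.05 (Neurod1 and Dcx), as for 19.3% of all genes, and DESeq2 called 2.

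**Figure D1:**
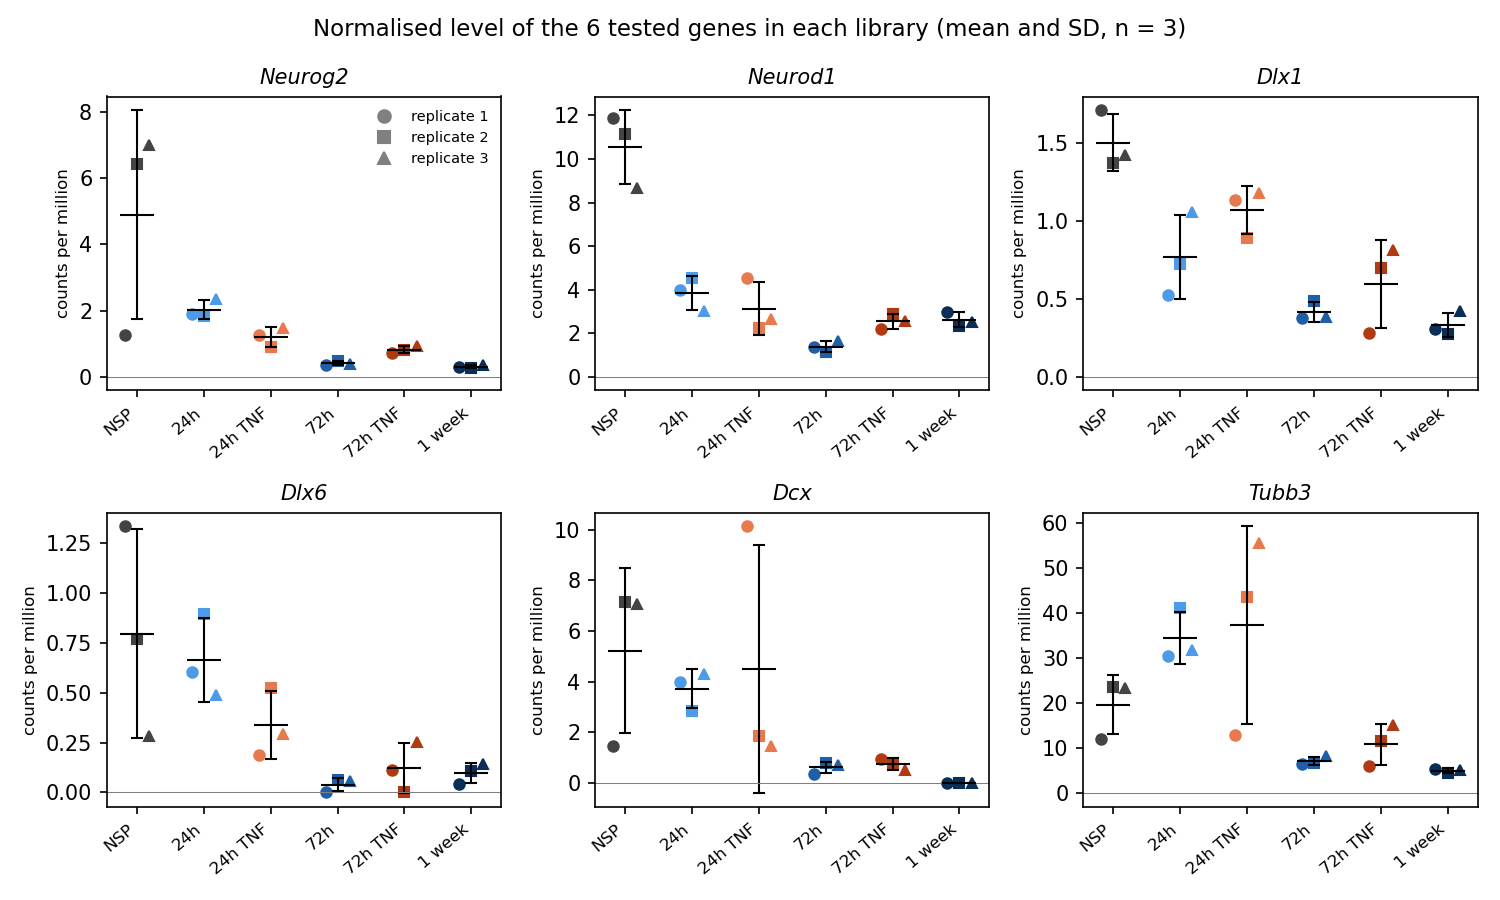
CPM (y axis, linear, one scale per gene) of the 6 tested genes in each library of the 6 conditions (x axis), with marker shape for the replicate and bars for mean and SD of 3 libraries. Neurod1 is at 8.65 to 11.9 CPM in NSPs and at most 4.54 elsewhere, Dcx is 0 in all 1 week libraries, and the first 24 h TNF library is the highest for Dcx and the lowest of its group for Tubb3.

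Neurog2 (ENSMUSG00000027967, GRCm38 chr3:127633135-127635631, forward strand) commits precursors to neurogenesis. Its NSP libraries held 1.27, 6.42 and 6.997 CPM, the 24 h libraries 1.89, 1.85 and 2.36, the 72 h libraries 0.378, 0.491 and 0.385, and the 1 week libraries 0.309, 0.274 and 0.352. The first NSP library thus lay below all 24 h libraries, while the 72 h and 1 week libraries lay below all NSP and 24 h libraries. Neurog2 fell from NSPs to 24 h by 1.28 on the log2 scale (SE 0.40, edgeR adjusted p = 0.0121) and from 24 to 72 h by 2.25 (SE 0.51, edgeR adjusted p = 0.00309). At 72 h it was 11.5-fold below NSPs. Without NSP replicate 1 the fall to 24 h was 1.73 (edgeR adjusted p = 1.01e-05), and without NSP replicate 2 or 3 it was no longer called (edgeR adjusted p = 0.0590 and 0.0784). Fitting only these 2 groups also ended the call (-1.25, edgeR adjusted p = 0.0695).

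Neurod1 (ENSMUSG00000034701, GRCm38 chr2:79452521-79456751, reverse strand), which acts after Neurog2 in neuronal differentiation, had 11.9, 11.1 and 8.65 CPM in NSPs. It had 4.01, 4.53 and 3.01 CPM at 24 h, 1.36, 1.17 and 1.65 at 72 h, and 3.00, 2.36 and 2.54 at 1 week. NSPs, 24 h and 72 h formed a descending series with no overlap, and the 1 week libraries lay above all 72 h libraries. The falls were 1.44 to 24 h (SE 0.25, edgeR adjusted p = 1.00e-04) and 1.46 from 24 to 72 h (SE 0.28, edgeR adjusted p = 7.28e-04). Leaving out any single library of the compared conditions kept both calls. Neurod1 and Dlx6 had their lowest mean at 72 h, the other tested genes at 1 week. The Neurod1 difference of +0.91 from 72 h to 1 week did not pass (SE 0.28, 95% interval 0.324 to 1.504, edgeR adjusted p = 0.0603). DESeq2 gave that difference an adjusted p of 0.0422. Neurod1 shares 201 exonic bases with Cerkl on the same strand, which had at most 15 counts in any condition.

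Among the Dlx factors, which sit as neighbouring pairs (Dlx1 and Dlx2 9426 bases apart on chromosome 2, Dlx5 and Dlx6 9236 bases apart on chromosome 6), the 2 pairs each held 1 tested and 1 barely counted gene. Dlx1 (ENSMUSG00000041911, GRCm38 chr2:71528113-71533981, forward strand) had 1.71, 1.37 and 1.42 CPM in NSPs, 0.529, 0.727 and 1.06 at 24 h, 0.378, 0.491 and 0.385 at 72 h, and 0.309, 0.274 and 0.423 at 1 week. All NSP libraries lay above all 24 h libraries, and the 24 h libraries above the 72 h libraries. The fall to 24 h was 0.96 (SE 0.34, edgeR adjusted p = 0.0223), and the step from 24 to 72 h of -0.86 did not pass (SE 0.40, edgeR adjusted p = 0.129). Leaving out NSP replicate 1, 24 h replicate 1 or 24 h replicate 2 ended the call at 24 h (edgeR adjusted p = 0.0588, 0.104 and 0.0711). Dlx1 shares 335 exonic bases with the antisense gene Dlx1as, which had 126 counts in NSPs and 139 at 72 h where Dlx1 went from 77 to 20. The library kit kept strand, but the setting used for counting was not stated, so reads of the shared stretch cannot be assigned with certainty.

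Dlx6 (ENSMUSG00000029754, GRCm38 chr6:6863334-6868568, forward strand) stayed at few counts: 21, 14 and 5 in NSPs, 8, 16 and 6 at 24 h, 0, 1 and 1 at 72 h, and 1, 2 and 2 at 1 week. The NSP and 24 h libraries overlapped, and every 72 h and 1 week library lay below them. The pooled rate was 18.5 times higher in NSPs than at 72 h, with an exact Poisson 95% interval of 4.80 to 158 that covers counting error only (edgeR adjusted p = 5.10e-04). The 24 h rate was 16.5 times that at 72 h (interval 4.18 to 142, edgeR adjusted p = 0.00322). Against NSPs the 24 h difference was -0.21 (edgeR adjusted p = 0.757) and turned to +0.35 without NSP replicate 1. Dlx6os2 and Dlx6os1 lie on the opposite strand; the first shares 104 exonic bases with Dlx6 and had at most 2 counts per condition, the second shares none.

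**Figure D2:**
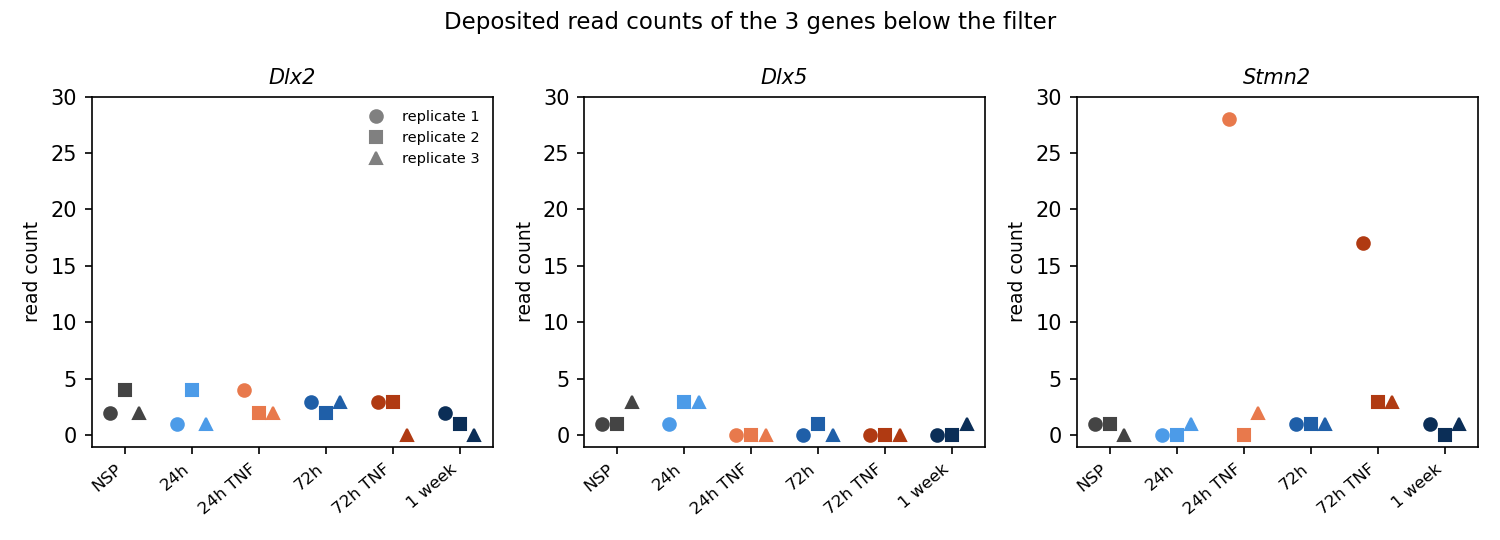
Deposited read counts (y axis) of Dlx2, Dlx5 and Stmn2 in each library of the 6 conditions (x axis), with marker shape for the replicate. Dlx2 stays at 0 to 4 and Dlx5 at 0 to 3 counts, and Stmn2 exceeds 3 counts only in the first 24 h TNF library (28) and the first 72 h TNF library (17).

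Dlx2 (ENSMUSG00000023391, GRCm38 chr2:71543408-71546754) had 2, 4 and 2 counts in NSPs and 0 to 4 in every other library. Pooled, its rate in NSPs was 2.85 times that at 1 week (8 against 3 counts, exact Poisson 95% interval 0.684 to 16.7). Dlx5 (ENSMUSG00000029755, GRCm38 chr6:6877805-6882085) had 1, 1 and 3 counts in NSPs, 1, 3 and 3 at 24 h, and 0 in all 6 libraries with TNF. It also had 0 counts in 2 of 3 libraries at 72 h and at 1 week, and at this depth no difference could be shown. A count of 0 in a library allows up to 3 counts, or 0.132 to 0.244 CPM depending on the library.

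Neither tested young neuron gene was called in the first 24 h, and both fell afterwards. Dcx (ENSMUSG00000031285, GRCm38 chrX:143855842-143933311, reverse strand) had 1.46, 7.14 and 7.05 CPM in NSPs, 4.01, 2.85 and 4.32 at 24 h, 0.378, 0.798 and 0.715 at 72 h, and 0 counts in all 3 libraries at 1 week. NSPs and 24 h overlapped, and the later libraries lay below both. The difference from NSPs to 24 h was -0.50 (SE 0.60, edgeR adjusted p = 0.497) and, without NSP replicate 1, -0.94 (edgeR adjusted p = 0.172). Dcx then fell by 2.51 from 24 to 72 h (SE 0.73, edgeR adjusted p = 0.0179). This call was lost without 24 h replicate 3, 72 h replicate 1 or 72 h replicate 3 (edgeR adjusted p = 0.0529, 0.0570 and 0.0557). Set against a floor of 3 counts over the 1 week group, the mean of Dcx was 95.8-fold higher in NSPs and 11.6-fold higher at 72 h. These values allow for counting error at 1 week only. They leave out the spread of the NSP libraries (1.46 to 7.14 CPM) and of the 72 h libraries (0.378 to 0.798). The fall from NSPs to 1 week passed the test (edgeR adjusted p = 2.15e-05), and that from 72 h did not (edgeR adjusted p = 0.0570).

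Tubb3 (ENSMUSG00000062380, GRCm38 chr8:123411424-123422015, forward strand) was the most abundant of the 9 per kilobase in every condition. Its NSP libraries had 12.1, 23.7 and 23.4 CPM, the 24 h libraries 30.6, 41.2 and 31.9, the 72 h libraries 6.51, 6.69 and 8.25, and the 1 week libraries 5.39, 4.49 and 5.28. All 24 h libraries lay above all NSP libraries, but the difference of +0.81 did not pass (SE 0.38, 95% interval 0.02 to 1.60, edgeR adjusted p = 0.0798). Without NSP replicate 1 it was +0.55 (edgeR adjusted p = 0.268). It passed with the replicate number as a block (+0.88, edgeR adjusted p = 0.0219), when only these 2 groups were fitted (+0.84, edgeR adjusted p = 0.0180) and without a filter on low counts (+0.76, edgeR adjusted p = 4.52e-04). From 24 to 72 h Tubb3 fell by 2.27 (SE 0.40, edgeR adjusted p = 4.05e-04), and at 1 week it was 3.90-fold below NSPs. The order of its mean levels was 24 h, NSP, 72 h and 1 week. The step from NSPs to 72 h passed the test, whereas 24 h and NSPs, as above, and 72 h and 1 week (-0.50, 95% interval -1.38 to 0.37, edgeR adjusted p = 0.580) did not, although all 1 week libraries lay below all 72 h libraries.

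Stmn2 (ENSMUSG00000027500, GRCm38 chr3:8509360-8561606, forward strand) had 0 or 1 count in each of the 12 libraries without TNF. As RNA came from whole cultures, fewer neuronal cells and less RNA per cell cannot be told apart for any of these genes.

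The second question was whether TNF changed these levels. At 24 h, TNF changed none of the 6 tested genes, against 3.5% of all genes, and no member reached an unadjusted p under 0.05 in edgeR. At 72 h it again changed none, against 9.56% of all genes, with 1 member, Neurod1, at an unadjusted p under 0.05. In the test of whether the TNF effect differed between 72 and 24 h, none of the 6 was called, against 0.458% of all genes, with Neurog2 and Neurod1 at an unadjusted p under 0.05. DESeq2 called 0 members in each of these 3 comparisons. Over all 9 comparisons it gave an adjusted p for 51 of the 54 member results. Between 24 h TNF and 72 h TNF, Dcx and Tubb3 fell, 2 of 6 members, where 7.93% of all genes fell. Marker sums differed with TNF as well. The 8 astrocyte markers summed to 4875 to 6199 CPM at 24 h TNF against 5324 to 5789 at 24 h, and to 3485 to 4888 at 72 h TNF, below all 72 h libraries. The oligodendrocyte lineage markers summed to 165 to 396 CPM at 24 h TNF against 376 to 456 at 24 h, and to 145 to 185 at 72 h TNF, above all 72 h libraries. At 72 h TNF lowered 3 of 8 astrocyte markers, against 5.21% of all genes, and raised 2 of 7 oligodendrocyte lineage markers, against 4.35%. The fibroblast and mural markers summed to 96.1 to 530 CPM at 24 h TNF and 54.0 to 204 at 72 h TNF, with neither tested marker called for TNF at either time. The part of these cell types in the TNF values of the members and of the related lists was not tested.

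**Figure D3:**
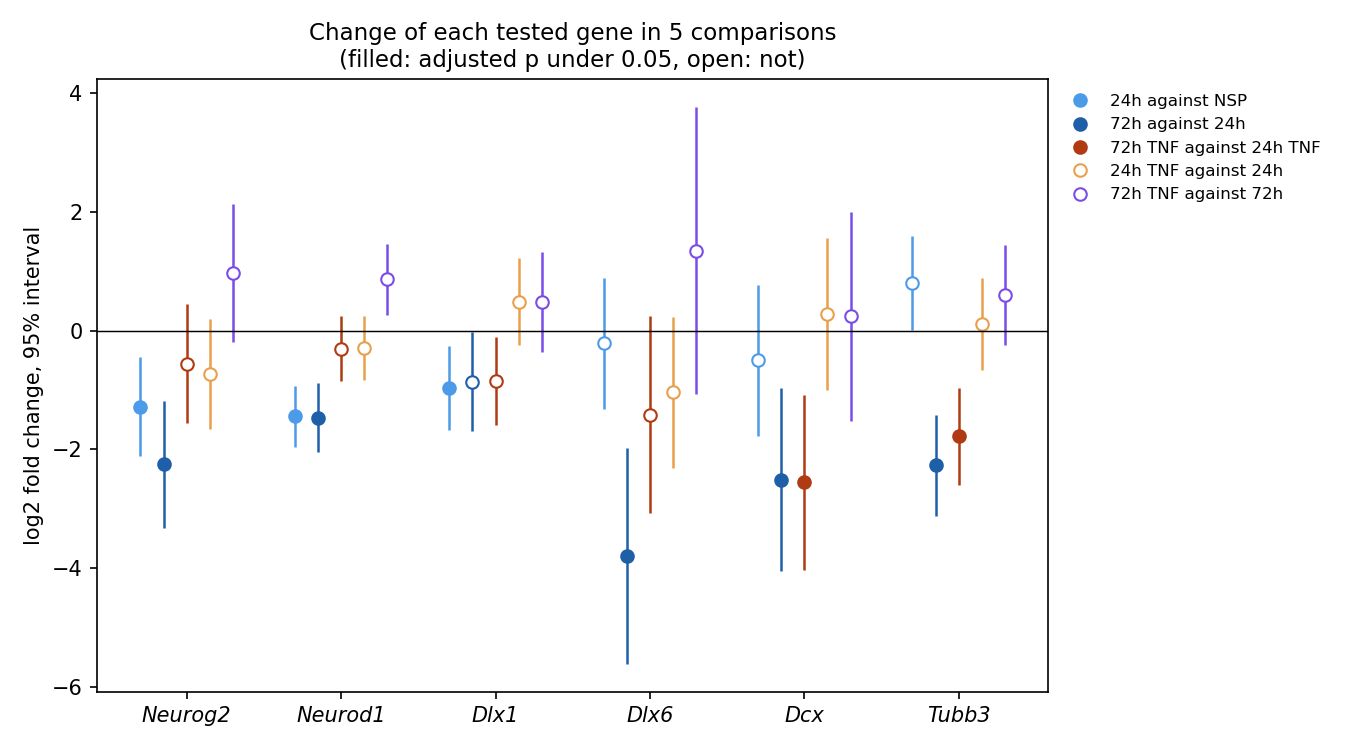
Log2 fold change with 95% interval (y axis) of the 6 tested genes (x axis) in 5 comparisons shown by colour, filled where the edgeR adjusted p was under 0.05. The TNF comparisons are all open, and from 24 to 72 h 5 genes are filled without TNF and 2 with TNF.

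For the proneural factors, values with TNF lay below the untreated ones or overlapped them at 24 h and lay above them at 72 h. Neurog2 had 1.26, 0.895 and 1.47 CPM at 24 h TNF and 0.732, 0.812 and 0.938 at 72 h TNF. Its 24 h TNF libraries lay below all 24 h libraries, and its 72 h TNF libraries above all 72 h libraries. The TNF differences of -0.73 at 24 h (SE 0.44, edgeR adjusted p = 0.533) and +0.97 at 72 h (SE 0.55, edgeR adjusted p = 0.290) did not pass. Neurod1 had 4.54, 2.24 and 2.65 CPM at 24 h TNF and 2.20, 2.90 and 2.57 at 72 h TNF. The first set overlapped the 24 h libraries, and the second lay above all 72 h libraries, with a TNF difference of +0.87 that did not pass (SE 0.28, 95% interval 0.27 to 1.46, edgeR adjusted p = 0.0617). The fall from 24 to 72 h was 1.46 without TNF, and the difference was -0.30 with TNF (95% interval -0.86 to 0.25). The latter turned to 0.096 without the first 24 h TNF library and to 0.17 without both first TNF libraries (edgeR adjusted p = 0.839 and 0.756). The difference between those 2 steps, +1.16 for Neurod1 (SE 0.38) and +1.69 for Neurog2 (SE 0.71), did not pass either (edgeR adjusted p = 0.252 and 0.425).

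With TNF, Dlx1 had 1.13, 0.895 and 1.18 CPM at 24 h and 0.282, 0.696 and 0.813 at 72 h. The TNF differences were +0.49 at both times (95% interval -0.25 to 1.22 at 24 h and -0.35 to 1.33 at 72 h). Dlx6 had 3, 7 and 5 counts at 24 h TNF and 2, 0 and 4 at 72 h TNF, which overlapped the untreated counts at both times.

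In Dcx and Tubb3 at 24 h TNF, and in Stmn2 at both times, the first TNF library lay apart from the other two of its group. Dcx had 10.1, 1.86 and 1.47 CPM at 24 h TNF, that is its highest level in any library beside values below all untreated 24 h libraries. In the same 3 libraries Tubb3 had 12.98, 43.7 and 55.5 CPM, so that the library highest in Dcx was lowest in Tubb3. At 72 h TNF Dcx had 0.958, 0.812 and 0.501 CPM, with the first library close to the second. Stmn2 had 28, 0 and 2 counts at 24 h TNF and 17, 3 and 3 at 72 h TNF, with the high count in the first library at both times. In pooled counts Stmn2 was 28.1 times higher at 24 h TNF than at 24 h (exact Poisson 95% interval 4.68 to 1148) and 7.17 times higher at 72 h TNF than at 72 h (2.17 to 37.3). These intervals cover counting error only, and both ratios rest mainly on the first library. The first TNF libraries were also apart in glial and contractile genes: Gfap, the astrocyte filament, was at 1871, 463 and 596 CPM at 24 h TNF and at 1022, 217 and 229 at 72 h TNF. Acta2, smooth muscle actin and most of the fibroblast and mural marker sum in these libraries, was at 90.3, 527 and 493 CPM and at 49.2, 186 and 202. Both were chosen after their values were seen, and their part in the Dcx, Tubb3 and Stmn2 values was not tested.

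Dcx fell from 24 h TNF to 72 h TNF by 2.55 (SE 0.70, edgeR adjusted p = 0.0227), but without the first 24 h TNF library the difference was -1.08 and was not called (edgeR adjusted p = 0.218). The call also ended without 72 h TNF replicate 2 or 3 (edgeR adjusted p = 0.0650 and 0.0915). The Dcx difference for TNF at 24 h, +0.28 (SE 0.60), turned to -1.17 without that library (edgeR adjusted p = 0.382). Tubb3 fell by 1.78 from 24 h TNF to 72 h TNF (SE 0.39, edgeR adjusted p = 0.00539) and kept its call without any 1 library of these conditions. When only the 2 groups were fitted, neither Dcx nor Tubb3 was called in that step (edgeR adjusted p = 0.0944 and 0.0887). Tubb3 at 72 h TNF, with 6.09, 11.6 and 15.1 CPM, overlapped the 72 h libraries (+0.60, SE 0.40, edgeR adjusted p = 0.368). With both first TNF libraries left out, a choice made after seeing them, TNF at 72 h raised Neurod1 by 0.96 (edgeR adjusted p = 0.0298) and Tubb3 by 0.89 (edgeR adjusted p = 0.0299).

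The first NSP library, low in Neurog2, Dcx and Tubb3 but not in Neurod1, Dlx1 or Dlx6, was low in some other genes of precursors and young neurons and high in others. Of the 25 other young neuron genes it was the lowest NSP library in 12 and the highest in 10, of 6 neural stem cell markers the lowest in 2 and the highest in 4, and of the 11 repressors of proneural factors the lowest in 9 and the highest in 2. Hes5, the Notch target, was at 24.5, 99.0 and 94.0 CPM in the 3 NSP libraries, Sox4, a factor of young neurons, at 104, 280 and 281, and Mapt, the axonal protein tau, at 75.3, 168 and 170. In the other direction, Sox11, also a factor of young neurons, was at 338, 267 and 256 CPM, Cd24a, a surface protein of young neurons, at 179, 112 and 113, and Nes, the precursor filament nestin, at 1798, 1055 and 1127. These 6 genes were chosen after their values were seen, and their part in the result was not tested.

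The list of repressors of proneural factors (Hes1, Hes5, Hes6, Hey1, Hey2, Id1 to Id4, Rest and Notch1), all 11 of which were tested, moved in both directions while the proneural factors fell. Of these, Hes6 is known to oppose Hes1 and to favour neurogenesis, and Notch1 is a receptor upstream of Hes genes, so neither is itself such a repressor. Hes6 was among the genes that fell both at 24 h (-0.72, edgeR adjusted p = 0.0301) and from 24 to 72 h (-1.20, edgeR adjusted p = 0.00326). At 24 h against NSPs 5 rose and 3 fell (median log2 change 0.11, against 0.06 over all tested genes), where 27.2% of all tested genes rose and 25.5% fell. Without NSP replicate 1 the counts were 5 and 4, and the 5 genes named next kept their calls. Id1 rose by 2.92 (SE 0.29), from 16.6 to 126 CPM, Id4 by 2.47 (SE 0.27) and Id3 by 1.60 (SE 0.27), whereas Hes5 fell by 3.23 (SE 0.50), from 72.5 to 7.69 CPM, and Hes1 by 1.62 (SE 0.31). From 24 to 72 h 1 rose and 6 fell (median -0.88, against -0.01 over all genes), where 12.2% of all genes rose and 12.6% fell. Hes5 fell by a further 4.33, Id3 by 1.46 and the receptor Notch1 by 0.95. TNF at 24 h changed none of the 11, against 3.5% of all genes, and at 72 h 4 were lower, against 5.21% of all genes. Among them were Hes1, lower by 1.44 (SE 0.35, edgeR adjusted p = 0.0115), and Id4, lower by 1.34 (SE 0.25, edgeR adjusted p = 0.00188). With both first TNF libraries left out 4 were again lower, with Hes1 at -1.05 (edgeR adjusted p = 0.00355) and Id4 at -1.17 (edgeR adjusted p = 0.00678).

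**Figure D4:**
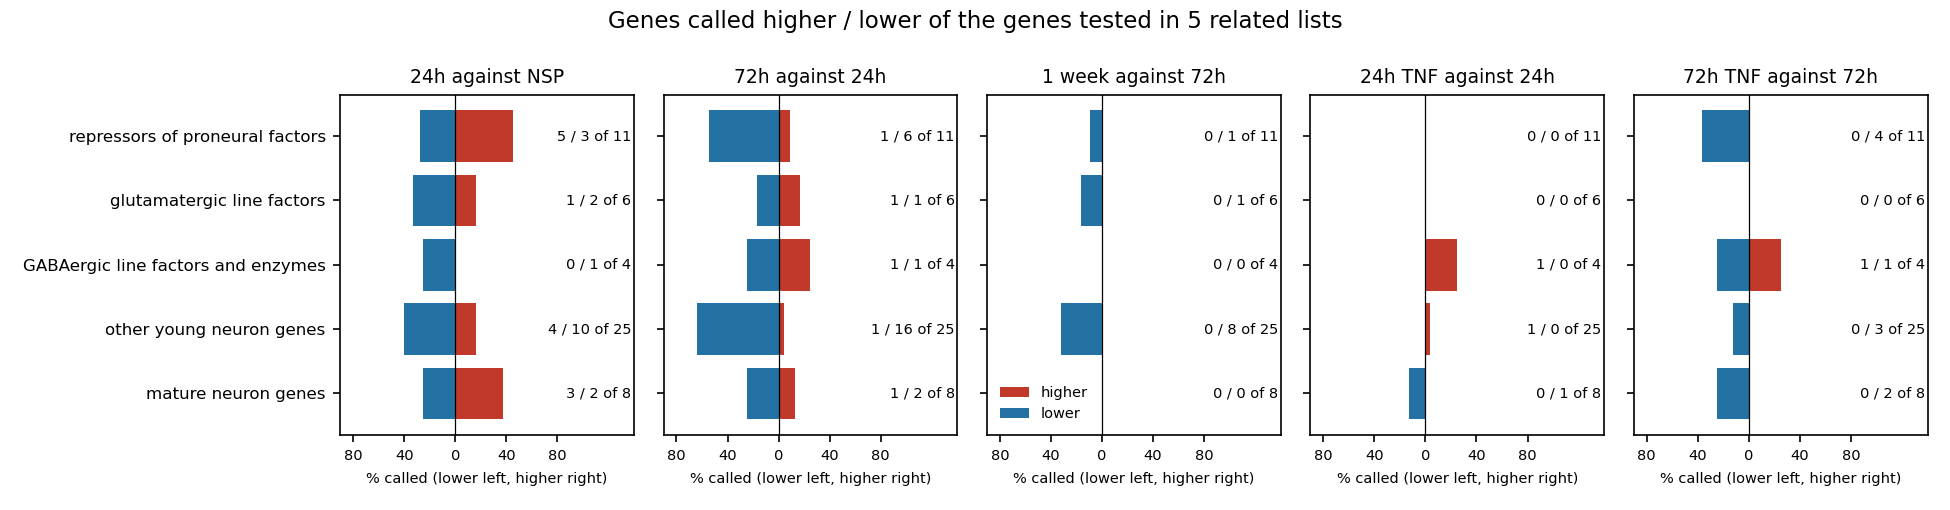
Share of tested genes called higher (right) or lower (left), in percent (x axis), in 5 related gene lists (rows) and 5 comparisons (panels), with the numbers higher, lower and tested printed in each row. In the 25 other young neuron genes, 16 are lower at 72 h than at 24 h and 1 is higher, while TNF changes 1 at 24 h and 3 at 72 h.

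Of 25 other young neuron genes, all tested, 4 rose and 10 fell at 24 h (median -0.37) and 1 rose and 16 fell from 24 to 72 h (median -0.78). Over all tested genes 27.2% rose and 25.5% fell in the first step and 12.2% and 12.6% in the second. Without NSP replicate 1, 4 rose and 12 fell at 24 h, and L1cam, Map1b and Tubb2b kept their calls. L1cam, an axonal adhesion molecule, was transient: it rose by 4.42 at 24 h (SE 0.31), from 0.445 to 9.71 CPM, and fell by 4.51 (SE 0.32) to 0.416 at 72 h. Map1b, a microtubule protein, rose by 2.60 at 24 h (SE 0.29), and Stmn4, of the Stmn2 family, fell by 3.56 from 24 to 72 h (SE 0.71). The most abundant of the list, Map2, stayed between 1531 and 1870 CPM on average and was called in none of these steps, and the beta-tubulin Tubb2b fell by 1.15 at 24 h (SE 0.21). From 72 h to 1 week 8 fell and none rose, where 3.96% of all genes fell and 2.68% rose. TNF at 24 h changed 1 of 25, against 3.5% of all genes: Cd24a (+0.85, SE 0.20, edgeR adjusted p = 0.0190). TNF at 72 h lowered 3, against 5.21% of all genes, with Nrep at -1.23 (SE 0.21, edgeR adjusted p = 8.23e-04) and Stmn3 at -1.04 (SE 0.29, edgeR adjusted p = 0.0309). The only interaction called in the list was that of Cd24a (-1.33, SE 0.28, edgeR adjusted p = 0.0439), against 0.458% of all genes. With both first TNF libraries left out, Cd24a lost both calls (+0.78 at 24 h, edgeR adjusted p = 0.0561, and an interaction of -1.18, edgeR adjusted p = 0.110). At 72 h 3 genes were then lower, Nrep and Stmn3 among them (-1.16 and -0.79, edgeR adjusted p = 0.00257 and 0.0277), and 3 higher, among them Map1b (+0.98, edgeR adjusted p = 6.70e-05) and L1cam (+1.23, edgeR adjusted p = 0.0403).

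The line factors of both neuron classes were thinly expressed. Of 12 glutamatergic line factors 6 were tested. At 24 h, where 27.2% of all tested genes rose and 25.5% fell, 1 rose, Pax6, a precursor factor (+1.01, SE 0.16), and 2 fell, Neurod4 by 2.55 (SE 0.83) and Emx2 by 0.75 (SE 0.18). TNF changed none of these 6 at either time, against 3.5% of all genes at 24 h and 9.56% at 72 h. Of 13 GABAergic factors and enzymes 4 were tested. Gad1, which makes GABA, fell by 1.35 at 24 h (SE 0.26, edgeR adjusted p = 3.28e-04) and was higher with TNF by 1.65 at 24 h (SE 0.26, edgeR adjusted p = 9.22e-04) and by 1.40 at 72 h (SE 0.26, edgeR adjusted p = 0.00151). With both first TNF libraries left out these were 1.19 (edgeR adjusted p = 0.00126) and 1.25 (edgeR adjusted p = 2.80e-04). Of 13 mature neuron genes 8 were tested: 3 rose and 2 fell at 24 h. Camk2a, a synaptic kinase, rose by 1.55 (SE 0.36) and Syn1, of synaptic vesicles, by 1.03 (SE 0.37), and the receptor subunit Grin1 fell by 1.72 (SE 0.49). Without NSP replicate 1 the genes named here for 24 h all kept their calls, Syn1 closest to the threshold (+1.08, edgeR adjusted p = 0.0450). TNF lowered Camk2a at 24 h by 1.44 (SE 0.36, edgeR adjusted p = 0.0300) and at 72 h by 2.29 (SE 0.36, edgeR adjusted p = 3.49e-04), and the neuronal splicing factor Rbfox3 at 72 h by 1.86 (SE 0.45, edgeR adjusted p = 0.0124), that is 1 of 8 lower at 24 h and 2 of 8 at 72 h, where 1.32% and 5.21% of all genes were lower. With both first TNF libraries left out, Camk2a was at -2.18 (edgeR adjusted p = 4.73e-04) and -2.27 (edgeR adjusted p = 7.05e-05), and Rbfox3 lost its call (-1.52, edgeR adjusted p = 0.0597).

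Across the 18 libraries, which share conditions and depth, Pearson's r between the log2 CPM of 2 members ran from 0.376 for Neurod1 with Tubb3 to 0.845 for Neurog2 with Dcx. Of all genes at 1 CPM or more on average, the most similar to Neurog2 were Jarid2 (r = 0.963) and Gpc2 (r = 0.956), and to Neurod1 Mthfd1l (r = 0.944) and Ska1 (r = 0.932). Dlx1 was closest to Osbpl10 (r = 0.929) and Elavl4 (r = 0.915), and Dlx6 to Clcn5 (r = 0.902) and Gm38399 (r = 0.897). Dcx was closest to Mapt (r = 0.949) and Ramp2 (r = 0.942), and Paqr8 (r = 0.946) was among the 2 closest to Tubb3.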

How the data were processed

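The authors trimmed reads with Trim Galore, aligned them with STAR and counted them per gene with featureCounts; mm10 is the build in the labels, and neither versions nor the strand setting are given in the sources used here. The deposited table holds these raw counts per Ensembl gene, not normalized. RNA quality numbers (3.4 to 10) are not tied to libraries. Gene names and positions came from GENCODE M21 (54723 of 54838 identifiers). One 72 h column carries the number 4 where the label has 3, and was matched by condition and library index. Counts were filtered (filterByExpr by condition), scaled by TMM and tested in 1 quasi-likelihood fit over 18 libraries and 6 conditions (edgeR 4.0.16, R 4.3.3), with Benjamini-Hochberg adjustment over 20067 genes and a threshold of 0.05.

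Alternatives were another scaling (RLE), 3 other filters, a replicate block, only the groups compared, and DESeq2 1.42.0. Each library was also left out in turn, for the comparisons that hold its condition. The replicate number was checked as a pairing: same-numbered libraries deviated together, over genes, in 24 h TNF and 72 h TNF (r = 0.291, 0.255 and 0.266), but not every pair did in the other comparisons. The members, the related lists and the tests were chosen with earlier results of these data known. Named genes were all members, in each related list the 3 most abundant and the 2 largest called changes in 4 comparisons, and per tested member the 2 most correlated genes. Some genes that this rule names are not reported here.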

Additional observations from a re-analysis of the deposited data

Results flagged for a closer look

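The TNF effect on Neurog2 pointed one way at 24 h and the other at 72 h: every 24 h TNF library lay below every 24 h library, and every 72 h TNF library above every 72 h library. The effect at 72 h minus that at 24 h was 1.69 on the log2 scale (SE 0.71, 95% interval 0.20 to 3.18), and the test of this difference did not pass across all genes (unadjusted p = 0.0281, edgeR adjusted p = 0.425). It stayed between 1.54 and 1.86 when any 1 of the 12 libraries was left out.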

How the results depend on the processing

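The members' falls against NSPs at 72 h and 1 week kept all 6 calls when any 1 library of the compared conditions was left out. With RLE scaling all 54 member results kept their direction and side of the threshold. Without a filter 1 member was called from 72 h to 1 week (Dcx), 1 for TNF at 24 h (Stmn2) and 2 for TNF at 72 h (Stmn2 and Tubb3), while Tubb3 gained a call at 24 h and Dlx1 lost its own (edgeR adjusted p = 0.0584). With at least 5 counts in total 1 member was called from 72 h to 1 week (Dcx). Stmn2 was then called for TNF at neither time (edgeR adjusted p = 0.127 at 24 h and 0.221 at 72 h). At least 10 counts in every library left 2 members to test (Neurod1 and Tubb3). Against NSPs, 1 was then called after 24 h, 2 after 72 h and 2 after 1 week. The step from 24 to 72 h had 2 calls, and that from 24 h TNF to 72 h TNF had 1. These counts lay below those of the main fit, which tested 6 members. By contrast, Neurod1 gained a call from 72 h to 1 week (+0.92, edgeR adjusted p = 0.0497). It gained another for TNF at 72 h (+0.91, edgeR adjusted p = 0.0456). Fitting only the groups compared, which also applied the filter to those libraries alone, ended the Neurog2 call at 24 h. It gave 1 of the 2 members then tested from 72 h to 1 week (Neurod1), and 0 of the 5 then tested from 24 h TNF to 72 h TNF, where edgeR left 2 with an unadjusted p under 0.05. The parts of the filter and of the fit in this were not separated. DESeq2 gave 2 from 72 h to 1 week. With both first TNF libraries left out 1 member was called from 24 h TNF to 72 h TNF and 2 for TNF at 72 h.

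With the replicate block, the TNF difference at 24 h turned to -0.034 for Tubb3 and the interaction to -0.0062 for Dlx1 and 0.025 for Dcx. With 72 h replicate 3 unpaired in that block these were -0.039, -0.20 and 0.20, Tubb3 at 24 h was called (+0.88, edgeR adjusted p = 0.0269), and Dcx lost its calls from 24 h TNF to 72 h TNF (-2.45, edgeR adjusted p = 0.0547), which left 1 member there, and from 24 to 72 h (edgeR adjusted p = 0.0775). The full block changed no member's call except that of Tubb3 at 24 h. Without both first TNF libraries the step from 24 h TNF to 72 h TNF turned to 0.17 for Neurod1, TNF at 24 h to -1.16 for Dcx and the Dcx interaction to 1.19. Without 24 h TNF replicate 2, Stmn2, which failed the main filter, was tested on 28 and 2 counts in that group. Its call there thus rests mainly on the first library. Leaving out 1 library gave 1 to 2 members from 24 h TNF to 72 h TNF and 0 to 1 (Stmn2) for TNF at 24 h. It moved Dlx6 at 24 h against NSPs between -0.62 and 0.35, Neurod1 from 24 h TNF to 72 h TNF between -0.46 and 0.096, TNF at 24 h between -1.17 and 0.71 for Dcx and between -0.29 and 0.50 for Tubb3, and the interaction between -0.47 and 1.42 for Dcx and between -0.27 and 0.36 for Dlx1. None of the values that turned was called in either form, and the cause was not tested.

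Counts over all genes moved most for the smaller comparisons: the interaction called 92 genes, 554 without a filter, 246 with DESeq2, 56 with at least 10 counts in every library, 38 with only the groups compared and 24 with the unpaired block. TNF at 24 h called 703, and 1374 without a filter. From 72 h to 1 week 1331 were called, 2032 without a filter, 2001 of the 18039 then tested with only the groups compared and 617 with the unpaired block. With that block 24 to 72 h gave 3286 instead of 4970 and TNF at 72 h 986 instead of 1919, and with only the groups compared TNF at 72 h gave 1277 and 24 h TNF to 72 h TNF 828 instead of 2670. Leaving out 1 library gave 610 to 1373 from 72 h to 1 week, 360 to 741 for TNF at 24 h, 965 to 2922 for TNF at 72 h, 1233 to 3802 from 24 h TNF to 72 h TNF and 25 to 133 for the interaction. The libraries that moved these by over 1.5 times were, in that order, 72 h replicates 2 and 3 and each 1 week library, each 24 h library, each 72 h library, 24 h TNF replicates 2 and 3 with 72 h TNF replicate 3, and each 24 h library with 72 h and 72 h TNF replicates 2 and 3. Depth limited Dlx2, Dlx5, Dlx6 and Stmn2, which had too few counts to show small changes.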
